A study of Thermothelomyces thermophilus ATCC 42464 with 24 samples.

Results

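Mycth_90344 is a gene of the thermophilic cellulose-degrading fungus Myceliophthora thermophila that the study gives as the orthologue of NCU10006, a transcription factor gene of Neurospora crassa. It was taken by its identifier from a table of read counts, as 1 of 9110 genes, and followed through all 12 groups of the study. The gene passed the low-count filter with 8827 genes in all. No value measured here entered its choice, but the choice was made with earlier results of these data known. The study names the gene for its level in ΔlaeA on Avicel at 2 d, so the values of that comparison are described with no test. Tests below that use the 2 d libraries in other comparisons are not free of that naming.

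Filamentous fungi adjust the genes for plant cell wall breakdown to the carbon source. On glucose the zinc finger repressor CRE-1 holds many of these genes down, whereas on cellulose activators such as CLR-1, CLR-2 and XlnR raise them, and the secretory pathway has to fold and export large amounts of enzyme. LaeA is a putative methyltransferase of fungi known as a global regulator of secondary metabolism. Transcription factor genes can themselves be under the control of such regulators, and the level of their RNA does not show how much active protein is made.

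RNA-seq was performed on the wild type (WT) and on strains labelled ΔlaeA, Δcre-1, Δgrf-1, Δgrf-2 and Δgrf-3, grown at 45 °C on 2% glucose for 24 h. WT and ΔlaeA were also grown on 2% Avicel, a microcrystalline cellulose, for 2, 4 and 6 d. In each deletion strain the coding region was to be replaced by a selection marker through Cas9 cutting, neo for laeA and bar for the others, which the study calls growth regulatory factors. Each group had 2 libraries except Δgrf-2, for which 1 column of counts (replicate 2) was used. An effect of the marker and one of the deletion cannot be told apart in a comparison with WT.

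Totals ran from 18114947 to 33937501 counts per library, and 8608 to 8899 genes had at least 1 count. Replicates were closest in ΔlaeA and Δgrf-1 on glucose, where 1 gene each lay at least 2-fold apart, and farthest in Δgrf-3, with 824 genes, followed by WT on Avicel at 4 d with 357 genes and WT on glucose with 313 genes. The counts of the targeted genes went against some labels. Counts at laeA were higher in the libraries labelled ΔlaeA than in WT under all 4 conditions, with log2 fold changes of 3.73 ± 0.20 (SE) on glucose and of 4.45, 4.93 and 1.40 on Avicel at 2, 4 and 6 d, and counts at cre-1 were 1.95 ± 0.23 higher in the libraries labelled Δcre-1. In their own strains grf-1 differed from WT by 0.38 ± 0.19 and grf-3 by 0.43 ± 0.17, neither past the test, and grf-2 by -0.75 ± 0.20 (edgeR adjusted p = 0.0336), short of the fold threshold. A count per gene does not tell the coding region from other transcribed parts of the locus. Every direction given below for a strain rests on the label of its libraries, and a strain name such as ΔlaeA stands for the libraries so labelled.

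Mycth_90344 was detected in all 23 libraries, with 90 to 3714 counts, and its level differed between strains and between days on Avicel. Levels are given in CPM, counts per 1000000 counts of a library with totals scaled by the TMM factors of edgeR. The mean was highest in WT on Avicel at 6 d (113 ± 20.6 CPM, SD, n = 2) and lowest in Δcre-1 on glucose (7.36 ± 2.07 CPM, n = 2), a ratio of 15.4. On the scale of log2(CPM + 1) its 12 group means spanned 3.77, which was wider than in 87.4% of the genes tested (median 1.65).

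In descending order of the mean level the groups were WT at 6 d on Avicel, ΔlaeA at 4 d, WT on glucose, WT at 4 d, ΔlaeA at 6 d, Δgrf-2, WT at 2 d, Δgrf-1, ΔlaeA on glucose, Δgrf-3, ΔlaeA at 2 d and Δcre-1. Of the 11 neighbouring pairs in this order, 6 had libraries that did not overlap. Sorting by the mean itself favours such gaps, and their number was not counted for other genes, so this is a description only. The gap was narrow between WT at 4 d (lower library 49.2 CPM) and ΔlaeA at 6 d (higher library 48.6 CPM). The libraries overlapped between ΔlaeA at 4 d and WT on glucose, between ΔlaeA at 6 d and Δgrf-2, between Δgrf-2 and WT at 2 d, between ΔlaeA on glucose and Δgrf-3, and between Δgrf-3 and ΔlaeA at 2 d, so the order within these pairs was not larger than the spread. With library totals in place of TMM factors WT on glucose (86.6 CPM) ranked above ΔlaeA at 4 d (76.8 CPM), and WT at 4 d (45.9 CPM) moved below Δgrf-2 (51.4 CPM) and ΔlaeA at 6 d (50.3 CPM), whereas the highest and the 6 lowest groups held their ranks.

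**Figure D1:**
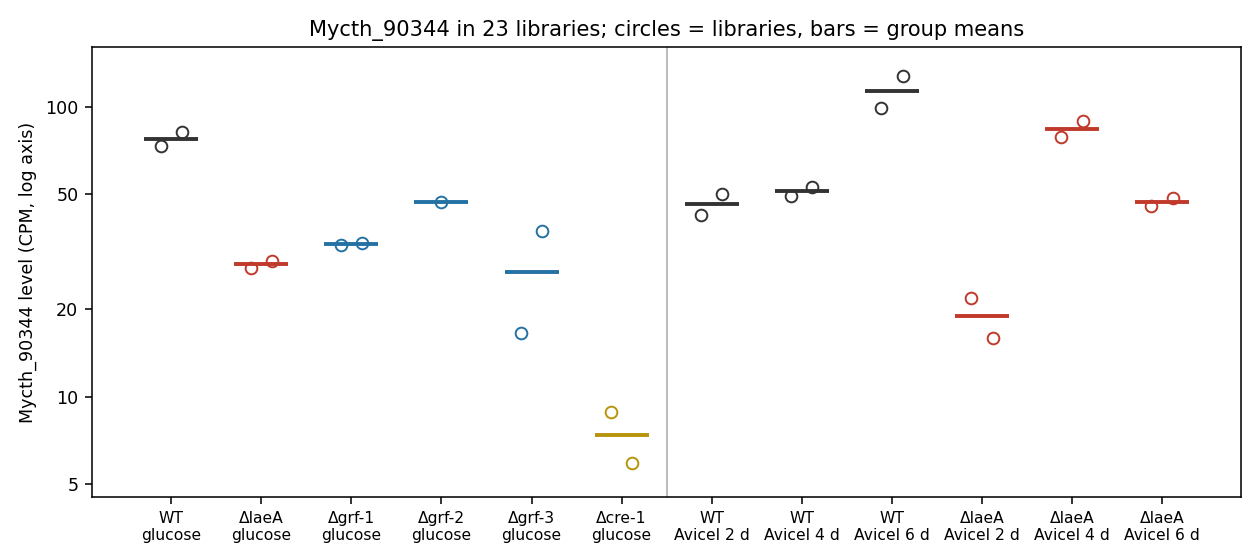
Level of Mycth_90344 in CPM (log axis) in each of 23 libraries (circles) with the mean of each of 12 groups (bars), glucose to the left of the line and Avicel to the right. The Δcre-1 libraries (8.82 and 5.90 CPM) lie below all others, WT on Avicel at 6 d (98.6 and 128 CPM) lies above all others, and the Δgrf-3 libraries (16.6 and 37.1 CPM) lie farthest apart.

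The first question was how loss of LaeA, of each growth regulatory factor or of CRE-1 bears on Mycth_90344 when glucose is the carbon source. WT held 73.1 and 81.5 CPM (1504 and 1803 counts). ΔlaeA held 27.8 and 29.4 CPM, and Δgrf-1 held 33.3 and 33.9 CPM. Both strains stayed below the lower WT library, with replicates that nearly coincided.

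Δgrf-3 held 16.6 and 37.1 CPM (380 and 854 counts), 2.24-fold apart, the widest gap of this gene among the 11 groups with a pair of libraries. The single Δgrf-2 library held 46.9 CPM (1136 counts, 95% Wilson interval from 44.2 to 49.7 CPM, which covers counting error only). Δcre-1 held 8.82 and 5.90 CPM (135 and 90 counts). All 9 libraries of the labelled deletion strains on glucose were thus below both WT libraries, with Δcre-1 lowest and no Δcre-1 library within the range of any other strain.

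Differences were tested by the quasi-likelihood test of edgeR on all 23 libraries, and a gene counted as called where its p, adjusted by Benjamini-Hochberg, was below 0.05 and its log2 fold change was at least 1 in size. Mycth_90344 fell 10.5-fold in Δcre-1 relative to WT, with a log2 fold change of -3.39 ± 0.31 (SE, adjusted p = 2.07e-07), in a comparison in which 20.2% of genes were called lower. In ΔlaeA it fell 2.70-fold (-1.43 ± 0.28, adjusted p = 0.00132, with 5.6% of genes called lower). In Δgrf-1 it fell 2.30-fold (-1.20 ± 0.28, adjusted p = 0.00387, with 9.99% of genes called lower). In Δgrf-3 it fell 2.88-fold (-1.53 ± 0.28, adjusted p = 0.000863, with 7.99% of genes called lower).

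The size of the Δgrf-3 value rested on which of its libraries was used. It was -1.06 without replicate 1 and -2.22 without replicate 2, and it was called either way. In Δgrf-2 the difference of -0.72 ± 0.34 was not called (adjusted p = 0.207, with 3.4% of genes called lower), and its 95% interval from -1.45 to 0.0071 includes values as large as that of ΔlaeA. All of these comparisons share the same pair of WT libraries and are therefore not independent of each other.

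A comparison that leaves WT out was made between Δcre-1 and each other strain. Mycth_90344 was lower in Δcre-1 than in ΔlaeA by a log2 fold change of -1.96 ± 0.30 (edgeR adjusted p = 5.17e-05, with 17.7% of genes called lower) and than in Δgrf-1 by -2.19 ± 0.30 (adjusted p = 2.6e-05, 13.3% called lower). It was lower than in Δgrf-2 by -2.67 ± 0.34 (adjusted p = 1.88e-05, 14.7% called lower) and than in Δgrf-3 by -1.87 ± 0.30 (adjusted p = 0.00011, 14.7% called lower). The last value was -2.33 without Δgrf-3 replicate 1 and -1.17 without Δgrf-3 replicate 2. Without TMM factors the median of all genes shifted by -0.69 between Δcre-1 and WT, and the value of Mycth_90344 was then -3.99, so the gene stayed far below the bulk of genes under either scaling.

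**Figure D2:**
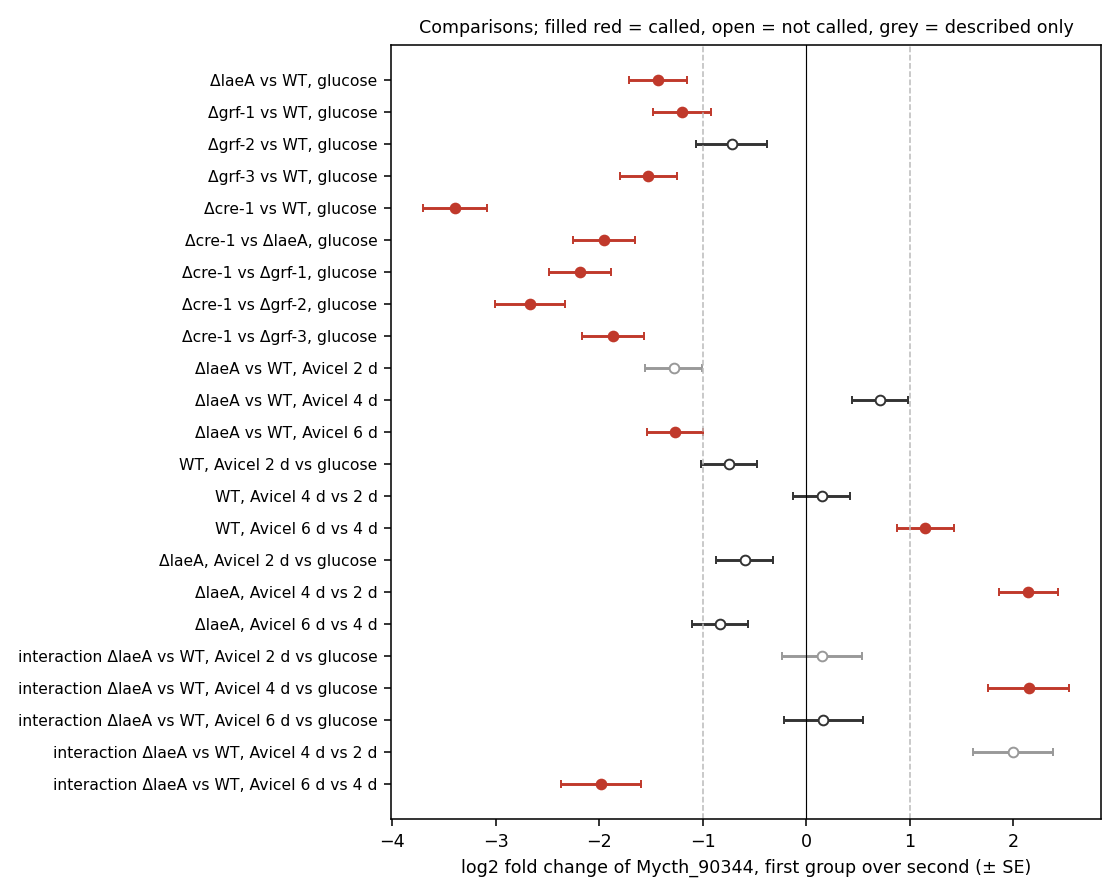
Log2 fold change of Mycth_90344 (x axis, first group over second, bars show SE) in 18 comparisons of groups and 5 interactions, in which the ΔlaeA to WT difference on one day is set against that on another or on glucose. Filled red points were called, open black points were not called, grey points are described with no test, and dashed lines mark a log2 fold change of 1 in size; Δcre-1 against WT (-3.39) is the lowest value and ΔlaeA at 4 d against 2 d (2.15) is among the highest.

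The second question was how Mycth_90344 changes in WT when cellulose replaces glucose and over the days on Avicel. By the study's account no Avicel was left after 6 d. At 6 d the day and the loss of the carbon source therefore cannot be told apart. WT on Avicel held 42.3 and 49.8 CPM at 2 d, 49.2 and 52.8 CPM at 4 d, and 98.6 and 128 CPM at 6 d. The 2 d libraries lay below both glucose libraries, the 2 d and 4 d libraries overlapped, and both 6 d libraries lay above every other WT library.

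From glucose to Avicel at 2 d the log2 fold change was -0.75 ± 0.27 (edgeR adjusted p = 0.0423), past the adjusted p but short of the fold threshold, and thus not called (5.64% of genes were called lower). The cultures also differed in age, 24 h on glucose against 2 d on Avicel, so carbon source and age cannot be told apart. Between 2 d and 4 d the difference of 0.15 ± 0.27 was not called (adjusted p = 0.691, interval from -0.43 to 0.73, with 9.18% of genes called higher).

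Between 4 d and 6 d Mycth_90344 rose 2.22-fold (1.15 ± 0.27, adjusted p = 0.00328), when 12.4% of genes were called higher. Without the higher of the 6 d libraries (replicate 2, 128 CPM) this value was 0.90 with an adjusted p of 0.047, which is short of the fold threshold.

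The third question was how LaeA bears on the gene over the days on Avicel, with the same limit at 6 d. ΔlaeA on Avicel held 21.9 and 15.9 CPM at 2 d, 78.2 and 89.1 CPM at 4 d, and 45.3 and 48.6 CPM at 6 d. The level was thus low at 2 d, highest at 4 d and intermediate at 6 d, with no overlap between the days, whereas in WT the highest level came at 6 d.

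At 2 d, the comparison for which the study names the gene, Mycth_90344 was 2.43-fold lower in ΔlaeA than in WT (log2 fold change -1.28 ± 0.28, with 10.7% of genes called lower). At 4 d both ΔlaeA libraries were above both WT libraries, with a difference of 0.71 ± 0.27 (edgeR adjusted p = 0.0467) that passed the adjusted p but not the fold threshold (9.17% of genes were called higher). At 6 d the gene was again lower in ΔlaeA, 2.41-fold (-1.27 ± 0.27, adjusted p = 0.00369), when 7.95% of genes were called lower. Without WT 6 d replicate 2 the value at 6 d was -1.05 with an adjusted p of 0.0527, past the threshold no longer.

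Within ΔlaeA the gene rose 4.42-fold between 2 d and 4 d (2.15 ± 0.28, adjusted p = 1.99e-05, with 13.4% of genes called higher). From 4 d to 6 d the difference was -0.83 ± 0.27 (adjusted p = 0.0187, short of the fold threshold, with 13.0% of genes called lower). From glucose to Avicel at 2 d it was -0.60 ± 0.28 and not called (adjusted p = 0.117, with 6.76% of genes called lower). The comparisons with 2 d use the ΔlaeA libraries for whose low level the study names the gene. That naming favours a rise from 2 d to 4 d, so the p-values of these comparisons are no independent evidence.

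**Figure D3:**
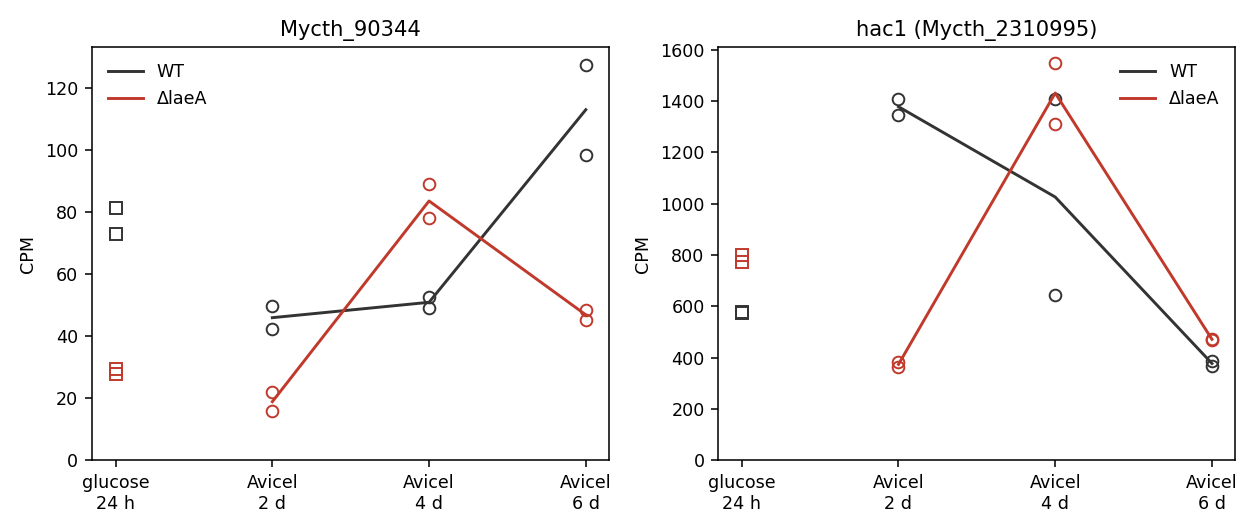
Level in CPM (y axis, starting at 0) of Mycth_90344 (left) and hac1 (right) in each library of WT (black) and ΔlaeA (red), on glucose at 24 h (squares) and on Avicel at 2, 4 and 6 d (circles, with lines through the group means). Mycth_90344 was lower in ΔlaeA on glucose, at 2 d and at 6 d and was higher at 4 d (78.2 and 89.1 against 49.2 and 52.8 CPM), whereas hac1 in ΔlaeA was lower at 2 d (383 and 364 against 1346 and 1409 CPM).

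Whether the gap between ΔlaeA and WT differed between conditions was tested as an interaction, the difference of these log2 fold changes. The gap at 4 d lay 2.15 ± 0.39 above that on glucose (edgeR adjusted p = 0.00066, with 10.2% of genes called higher), and the gap at 6 d lay 1.98 ± 0.39 below that at 4 d (value -1.98, adjusted p = 0.00102, with 12.8% of genes called lower). The gap at 6 d differed from that on glucose by 0.17 ± 0.38, which was not called (adjusted p = 0.786, interval from -0.65 to 0.98, with 5.35% of genes called higher). Described with no test, the gap at 2 d lay 0.15 ± 0.39 above that on glucose (3.55% of genes were called higher) and the gap at 4 d lay 2.00 ± 0.39 above that at 2 d (12.9% called higher). Mycth_90344 was thus lower in ΔlaeA on glucose, at 2 d and at 6 d by similar estimates, from -1.43 to -1.27, and the 4 d cultures stood apart from these.

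The study names Mycth_90344 and hac1 together with genes of protein synthesis and secretion that were low in ΔlaeA at 2 d. Regulators of cellulase genes, which the study takes from earlier work and follows in these same samples, were set beside Mycth_90344 here. The 6 used leave out Prd-1, Vib-1, Rac-1 and Ace1, which the study also lists. Among the 6 cellulase regulators (clr-1, clr-2, xlnR, hac1, amyR and cre-1), 5 fell in WT from 4 d to 6 d, with a median log2 fold change of -1.55 against 0.0052 over all genes tested (7.52% of genes were called lower), while Mycth_90344 rose. Over these days the activator gene clr-2 fell by 4.98 ± 0.50 on the log2 scale and xlnR fell by 4.33 ± 0.40, although their WT 4 d libraries lay far apart (189 ± 141 and 421 ± 311 CPM, SD, n = 2). In ΔlaeA from 2 d to 4 d, 4 of the 6 regulators (clr-1, clr-2, xlnR and hac1) rose, as did Mycth_90344 and 13.4% of all genes. Of the others, amyR (0.79 ± 0.16) and cre-1 (0.65 ± 0.22) were not called. The study names clr-1, clr-2 and xlnR for high levels in ΔlaeA at 4 d. It names hac1 for a low level there at 2 d. The rises of these genes are thus no independent evidence. In Δcre-1 relative to WT on glucose, 2 of the 6 regulators were called higher and none lower, when 15.4% of all genes were called higher. These were amyR (2.37 ± 0.17) and cre-1 itself (1.95 ± 0.23), the gene targeted in that strain, whose counts went against the label.

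hac1 (Mycth_2310995), the gene of the transcription factor of the unfolded protein response, had 575 and 579 CPM in WT on glucose and 1346 and 1409 CPM in WT at 2 d. It rose where Mycth_90344 was lower, with a log2 fold change of 1.26 ± 0.24 (edgeR adjusted p = 0.0007). The study names hac1 for a low level in ΔlaeA against WT at 2 d. That naming favours a high WT level at 2 d, so this p-value is no independent evidence. In WT from 4 d to 6 d, hac1 fell by 1.44 ± 0.24, from 645 and 1406 CPM to 366 and 388 CPM, while Mycth_90344 rose. In ΔlaeA both genes rose from 2 d to 4 d, hac1 by 1.94 ± 0.24, and the naming for 2 d favours both rises. Over the 12 group means of log2(CPM + 1) the Pearson correlation of hac1 with Mycth_90344 was -0.065, and those of clr-1, clr-2, xlnR, amyR and cre-1 were 0.20, 0.23, 0.15, -0.017 and -0.39. The Spearman correlation was 0.028 for hac1 and 0.22, 0.19, -0.11, 0.26 and 0.056 for the others in that order. The inverse relation to cre-1 was thus not seen in ranks. It also includes the Δcre-1 group, in which the cre-1 counts went against the label.

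Of 9 secretion genes, the study named 5 (3 for translocation proteins and 2 for endoplasmic reticulum chaperones) for their low level in ΔlaeA at 2 d. It named the other 4 (sec2, sec5, sec53 and sec72) for a high level in ΔlaeA at 4 d. Their counts in these comparisons are thus no independent evidence of a direction. At 4 d none of these 4 was called higher here, with 0.83 ± 0.16 for sec2, 0.10 ± 0.15 for sec5, 0.49 ± 0.15 for sec53 and 0.17 ± 0.16 for sec72. The 5 genes named for 2 d are the same 5 that were called lower at 2 d (10.7% of all genes were), and the list's median was -1.19 against -0.034 over all genes. In the other comparisons of ΔlaeA with WT, 0 of the 9 were called lower on glucose (5.6% of all genes), 1 of 9 at 4 d (9.95%) and 0 of 9 at 6 d (7.95%), shares that are near those of all genes for a list of this size. Called higher on glucose were 2 of 9, Mycth_2316209 (1.24 ± 0.20) and sec72, when 554 of 8827 genes were. At 6 d 1 of 9 was called higher, Mycth_2316209 (1.02 ± 0.20), when 213 of 8827 genes were. Both directions are opposite to that of Mycth_90344. The translocation protein gene Mycth_2309221 was nearest to Mycth_90344 in profile (r = 0.70 over the 12 group means), with falls of -1.07 ± 0.14 in Δgrf-3 and -1.04 ± 0.14 in Δcre-1 on glucose. The gene sec72 ran the other way (r = -0.83), with rises of 1.58 ± 0.17 in ΔlaeA and 1.70 ± 0.17 in Δcre-1 on glucose, and so did the endoplasmic reticulum chaperone genes Mycth_80427 (r = -0.76) and Mycth_2300892 (r = -0.69), which rose in Δcre-1 by 3.36 ± 0.53 and 1.49 ± 0.19. These correlations share libraries and depth and are descriptions.

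Of the growth regulator genes, grf-1, grf-2 and grf-3 each fell in ΔlaeA on glucose, as did Mycth_90344 and 5.6% of all genes. Their median was -1.09 against -0.032 over all genes. The study chose these 3 genes partly for their reduced level in ΔlaeA on glucose in these same samples. Their fall there is thus no independent evidence. Comparisons of the other strains with the same WT glucose libraries are not free of that choice. In the other strains on glucose none of these 3 genes was called against WT, but several values passed the adjusted p in the same direction as Mycth_90344 and missed the fold threshold. For grf-2, outside its own strain, these were -0.76 ± 0.16 in Δgrf-1 (edgeR adjusted p = 0.00223), -0.97 ± 0.16 in Δgrf-3 (adjusted p = 0.000419) and -0.84 ± 0.16 in Δcre-1 (adjusted p = 0.000339). For grf-1 they were -0.69 ± 0.19 in Δgrf-3 (adjusted p = 0.0118) and -0.90 ± 0.19 in Δcre-1 (adjusted p = 0.000699). For grf-3 they were -0.64 ± 0.17 in Δgrf-1 (adjusted p = 0.00865) and -0.45 ± 0.17 in Δcre-1 (adjusted p = 0.0315). The difference between these genes and Mycth_90344 was not tested. Their correlations with Mycth_90344 were 0.13, 0.49 and 0.39.

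The profile of Mycth_90344 was then compared with those of 7727 genes that reached at least 10 CPM in their highest group, by the Pearson correlation of log2(CPM + 1) over the 12 group means. The median correlation was 0.017, and 158 genes reached at least 0.8. The 5 genes with the highest values were Mycth_105006 and Mycth_2116126 (both 0.93), Mycth_2308782 (0.92), Mycth_100489 and Mycth_2309139 (both 0.91). With the 23 libraries as points, 2 of these 5 remained among the top 5, and with a pseudocount of 0.1 CPM all 5 did.

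The nearest of them, Mycth_105006, had its lowest mean level in Δcre-1 (47.7 CPM) and its highest in WT at 6 d (143 CPM), as did Mycth_90344, but over a narrower span. It fell in Δcre-1 by 1.46 ± 0.16 on the log2 scale, where Mycth_90344 fell by 3.39. At 4 d its levels in ΔlaeA and WT were close (122 and 122 CPM), and its values in the Δgrf strains against WT did not pass the test. The 3 genes with the lowest correlations were Mycth_2303817 (-0.97), Mycth_2300945 (-0.95) and Mycth_2308710 (-0.94). Mycth_2303817 had 189 and 189 CPM in the Δcre-1 libraries and 62.5 and 48.7 CPM in WT at 6 d, its highest and lowest groups.

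**Figure D4:**
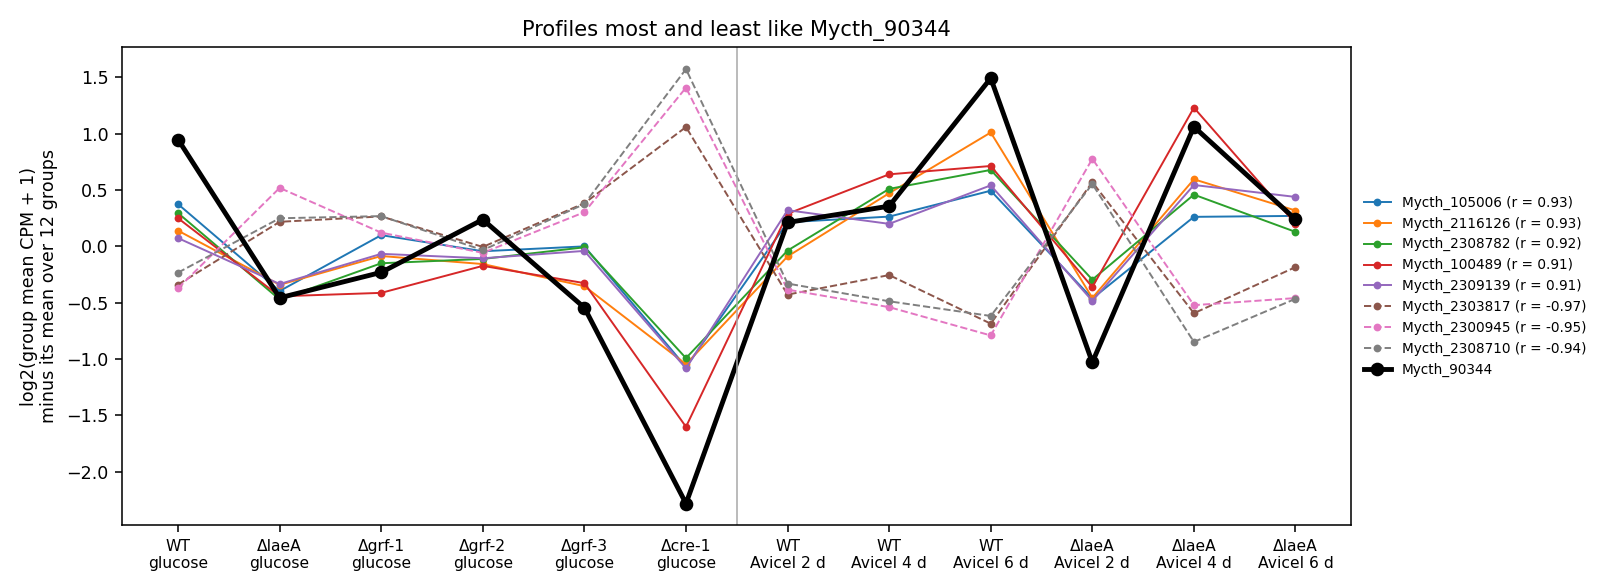
Group means on the log2(CPM + 1) scale, each gene centred on its mean over the 12 groups (y axis), for Mycth_90344 (black), the 5 genes with the highest correlation (solid lines) and the 3 with the lowest (dashed lines). The highest correlations run from 0.91 to 0.93 and the lowest from -0.97 to -0.94, and in Δcre-1 the black line lies below the other solid lines.

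In the gene order of the RefSeq annotation, the nearest genes of Mycth_90344 were Mycth_2297954 and Mycth_2297957 on one side and Mycth_2297964 and Mycth_2132441 on the other. The directly adjacent Mycth_2297964 had 479 and 479 CPM in WT on glucose, 266 and 250 CPM in ΔlaeA, 17.6 and 18.8 CPM in Δgrf-1, 34.2 and 14.6 CPM in Δgrf-3, 74.6 CPM in the Δgrf-2 library and 7.45 and 5.83 CPM in Δcre-1. As for Mycth_90344, WT was highest and Δcre-1 lowest on glucose, and the Δgrf-3 libraries lay apart with replicate 1 the higher here and replicate 2 the higher for Mycth_90344.

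Mycth_2297964 fell relative to WT on glucose, with -4.72 ± 0.33 in Δgrf-1, -2.68 ± 0.39 in Δgrf-2, -4.30 ± 0.32 in Δgrf-3 and -6.17 ± 0.36 in Δcre-1, each a larger log2 fold change than that of Mycth_90344. In ΔlaeA on glucose it was the smaller of the pair, with -0.89 ± 0.28 (edgeR adjusted p = 0.0269, short of the fold threshold) against -1.43 ± 0.28 for Mycth_90344. On Avicel these neighbours parted. In WT from 4 d to 6 d Mycth_2297964 fell by 3.27 ± 0.31 where Mycth_90344 rose, and at 6 d it was higher in ΔlaeA than in WT by 4.35 ± 0.32 where Mycth_90344 was lower. Both rose in ΔlaeA from 2 d to 4 d (4.31 ± 0.32 for Mycth_2297964). Its correlation with Mycth_90344 was 0.58 over the 12 group means.

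The other adjacent gene, Mycth_2297957, held 44.3 to 98.6 CPM in all 23 libraries and was called in none of the 18 comparisons of groups (r = -0.26). Mycth_2132441, the next gene beyond Mycth_2297964, was also called in none of them (r = -0.016). Mycth_2297954 (r = 0.67) fell in Δcre-1 and the Δgrf strains relative to WT on glucose. The values were -2.02 ± 0.38 in Δcre-1 and -1.84 ± 0.36, -1.60 ± 0.45 and -2.08 ± 0.36 in Δgrf-1, Δgrf-2 and Δgrf-3. Its levels were low, with 6.22 and 6.33 CPM in WT on glucose and 0.98 and 2.10 CPM in Δcre-1 (15 and 32 counts). The pseudocount of 1 CPM in its correlation is near such levels. It was also lower in ΔlaeA than in WT on all 3 days on Avicel. The strand setting of the counting is not given in the sources used here, so reads from overlapping or antisense transcripts at these genes cannot be told apart.

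**Figure D5:**
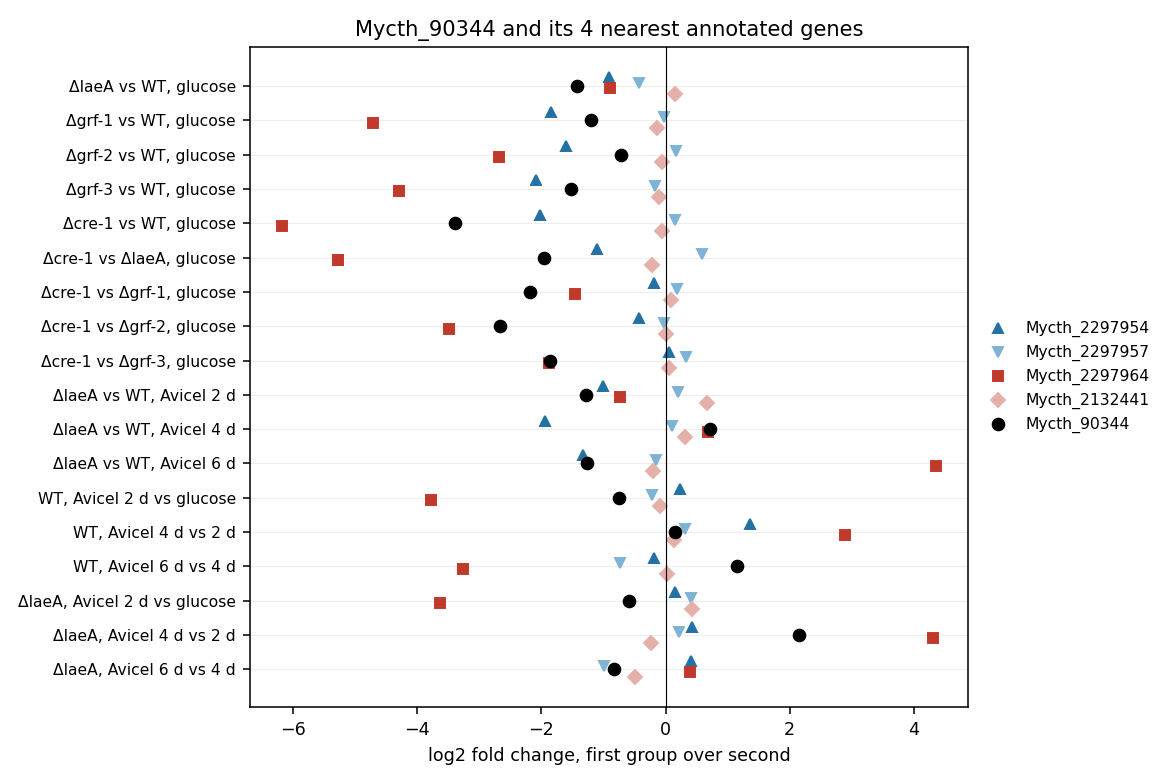
Log2 fold changes (x axis, first group over second) of Mycth_90344 (black circles) and of its 4 nearest annotated genes in the 18 comparisons of groups. Mycth_2297964 (red squares) runs from -6.17 to 4.35 and lies on the same side as Mycth_90344 in the glucose comparisons but on the other side in ΔlaeA against WT at 6 d and in both strains at 6 d against 4 d, while Mycth_2297957 and Mycth_2132441 stay between -0.99 and 0.67.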

How the data were processed

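Reads were aligned by the authors using TopHat2 2.0.8b, and the counts of reads per gene that they deposited came from HTSeq (version 0.5.4p2 in the submitters' processing notes, another version in the methods of the study). The sources used here give neither genome build nor strand setting. Of 24 titled libraries 23 had whole counts, and 1 column, named for Δgrf-2 replicate 1, was not used because it held normalized values that were not whole for 8865 genes. The Δgrf-2 group thus had 1 library, assumed to vary like the others. No source says that the glucose replicates came from separate cultures, so p-values measure the spread between these libraries, which may be technical.

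A model with 1 coefficient for each group was fitted to the 23 libraries by edgeR 4.0.16 (with R 4.3.3, TMM, filterByExpr, robust quasi-likelihood F-test, Benjamini-Hochberg over 8827 genes, 11 residual degrees of freedom). The common dispersion was 0.0312 and that of Mycth_90344 0.0378. Intervals are 95% intervals. The script was tested on simulated data. Correlations used a pseudocount of 1 CPM. Alternatives were RLE size factors, library totals only, DESeq2 1.42.0, no filter or one of 10 CPM in 2 libraries or more, only libraries of the same carbon source, the replicate number as a block, and each library left out in turn. Named were Mycth_90344, the 5 most and 3 least correlated genes, 2 annotated genes on each side, and the lists of the study. The gene, lists and tests were chosen with earlier results of these data known. Of 9110 gene identifiers, 9087 matched the RefSeq annotation ASM22609v1, used for names and gene order only. A planned list of zinc cluster proteins was not computed, and no sequence was used here. Figures were drawn with matplotlib 3.10.9.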

Additional observations from a re-analysis of the deposited data

Results flagged for a closer look

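The effect of the ΔlaeA label on Mycth_90344 differed between conditions in 3 places. The ΔlaeA to WT difference at 4 d on Avicel lay 2.15 above that on glucose on the log2 scale (edgeR interaction adjusted p = 0.00066). The difference at 6 d lay below that at 4 d by a value of -1.98 (adjusted p = 0.00102). Between 2 d and 4 d both ΔlaeA libraries went from below both WT libraries to above them, a change of 2.00, and this difference was not tested because the study names the gene for the 2 d comparison. In WT at 4 d, 357 genes lay at least 2-fold apart between replicates, whereas the libraries of Mycth_90344 there were 1.07-fold apart, and the part of that spread in these results was not tested.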

How the results depend on the processing

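Under RLE size factors, library totals only, no filter, at least 10 CPM in 2 libraries, DESeq2 and the replicate block, all 23 values of Mycth_90344 kept their direction and their side of the thresholds, as did the 18 that could be had from libraries of the same carbon source only. The replicate numbers did not pair the libraries, since deviations of same-numbered libraries correlated between -0.21 and 0.28 over 55 pairs of groups and exceeded 0.1 in 8. With the replicate block the Δcre-1 to WT value was -3.38 and the ΔlaeA to WT value on glucose was -1.43, and no call changed. With each library left out in turn, 523 of the values kept direction and side, 2 lost the call and 2 turned in sign. Without WT 6 d replicate 2, ΔlaeA against WT at 6 d was -1.05 (range over all libraries -1.44 to -1.05) and WT at 6 d against 4 d was 0.90 (range 0.90 to 1.32). The interaction of 2 d against glucose turned to -0.10 without ΔlaeA 2 d replicate 1 (range -0.10 to 0.37). That of 6 d against glucose turned to -0.0091 without WT 6 d replicate 1 (range -0.0091 to 0.37). With all libraries their SEs were 0.39 and 0.38, so the sign of neither was settled. The Δgrf-3 to WT value ran from -2.22 to -1.06 and the Δcre-1 to Δgrf-3 value from -2.33 to -1.17. With at most 2 libraries a group, and 1 for Δgrf-2, differences near 2-fold were the least settled, and the lowest counts, 135 and 90 in Δcre-1, carry the largest counting error.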
